A study of Homo sapiens with 4 samples.

Results

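Small nucleolar RNA genes were taken as the genes whose symbol begins with SNORA, SNORD or SCARNA and that have a probe set paired with exactly 1 gene symbol, which gave 192 of the 18417 genes measured. Of these, 61 were H/ACA genes (SNORA), 115 were C/D genes (SNORD) and 16 were genes of small Cajal body RNAs (SCARNA). A further 76 probe sets pair such a gene with other symbols and were left out. SNORD13P1, SNORD13P2 and SNORD13P3, counted here as C/D genes by their symbols, are pseudogenes in RefSeq. The arrays were hybridised with RNA of Ishikawa cells treated with siEfp, Ishikawa cells treated with siControl, HEC-1A cells treated with siEfp and HEC-1A cells treated with siControl, with 1 array for each. Efp is the protein encoded by TRIM25, an estrogen-responsive ubiquitin ligase of the RING finger, B-box and coiled-coil family. Both lines come from human endometrial adenocarcinoma, and the paper gives Ishikawa as positive and HEC-1A as negative for estrogen receptor α. The methods give the duplex siEfp #A and RNA at 48 h for the Ishikawa arrays, and for the HEC-1A arrays neither is given there.

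Small nucleolar RNAs are short noncoding RNAs that mostly lie in introns of other genes and are cut out of them after splicing. C/D RNAs guide 2′-O-methylation of ribosomal RNA with the methyltransferase fibrillarin (FBL), H/ACA RNAs guide pseudouridylation with the pseudouridine synthase dyskerin (DKC1), and the small Cajal body RNAs guide the same changes in spliceosomal RNAs. A few C/D RNAs instead take part in cutting the ribosomal RNA precursor, and many genes that hold such RNAs encode ribosomal proteins or make noncoding RNAs that serve mainly as hosts. An array probe set reads the mature RNA, its precursor and unspliced host RNA alike, and near-identical copies cannot be told apart.

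TRIM25 had a signal of 7.96 in siEfp-treated and 9.42 in siControl-treated Ishikawa cells, and of 7.93 in siEfp-treated and 9.50 in siControl-treated HEC-1A cells, on the log2 scale used for every signal and difference here. The epithelial genes KRT8, KRT18 and PAX8 lay between 9.88 and 12.44 on all 4 arrays, and the leukocyte and endothelial genes PTPRC and PECAM1 between 2.90 and 3.32. EPCAM, another epithelial gene, was at 11.24 on both Ishikawa arrays, against 7.05 and 7.26 on the HEC-1A arrays. COL1A1, a collagen gene of stromal cells, was at 7.29 and 7.40 in Ishikawa and at 6.37 and 6.50 in HEC-1A, above the median signal on every array, and its part in the results was not tested. CDH1, which encodes E-cadherin, was at 9.62 and 10.22 on the Ishikawa arrays, against 3.74 and 4.07 on the HEC-1A arrays, so this epithelial marker was close to the dim end in HEC-1A. ESR1, the gene of estrogen receptor α, was at 6.65 with siEfp and 6.91 with siControl in Ishikawa. In HEC-1A it was at 4.77 with siEfp and 4.45 with siControl. Arrays of the same line correlated at 0.992 in Ishikawa and 0.993 in HEC-1A over all probe sets. Each group is 1 array, so a difference between siEfp and siControl within a line is a value with no test.

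The small nucleolar RNA genes were spread over nearly the whole signal range of the arrays. Their median signal over 4 arrays was 6.18, and 90 of 192 reached 6.31, which is the median signal over all genes. The H/ACA genes had a median of 6.57 with 36 of 61 at or above that level, the SCARNA genes a median of 6.41 with 9 of 16, and the C/D genes a median of 5.49 with 45 of 115. Many C/D genes belong to repeated families of the imprinted clusters on chromosomes 14 and 15, and without these 46 copies the median of the remaining 69 C/D genes was 6.87. A signal depends on the probes of its probe set as well as on the RNA, so these levels describe how many genes were read well above the dim end and not their order of abundance. The highest signals of the classes were 12.25 for H/ACA, 12.41 for C/D and 10.32 for SCARNA genes.

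Treatment with siEfp was accompanied by higher signals of a few H/ACA genes in both lines, with SNORA60 and SNORA14A in front. SNORA60 had a signal of 6.81 in siEfp-treated and 5.68 in siControl-treated Ishikawa cells. In HEC-1A cells it had a signal of 8.74 with siEfp and 6.87 with siControl. The differences were +1.13 and +1.86, or 2.19-fold and 3.64-fold higher, which placed SNORA60 at position 14 of 18417 genes in Ishikawa and at position 1 in HEC-1A. Both siEfp signals lay above the siControl signal of their own line, and the siEfp signal of Ishikawa lay just below the siControl signal of HEC-1A.

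SNORA14A had a signal of 7.56 in siEfp-treated and 6.64 in siControl-treated Ishikawa cells, and of 8.50 in siEfp-treated and 7.0 in siControl-treated HEC-1A cells. It differed by +0.91 in Ishikawa and by +1.5 in HEC-1A, or 1.88-fold and 2.82-fold, at positions 41 and 3 of all genes. Both siEfp arrays were above both siControl arrays for SNORA14A. Its near relative by name, SNORA14B, had a signal of 5.24 in siEfp-treated and 4.93 in siControl-treated Ishikawa cells, and of 6.32 in siEfp-treated and 5.36 in siControl-treated HEC-1A cells, so that the difference was +0.31 in Ishikawa and +0.96 in HEC-1A.

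Further small nucleolar RNA genes were higher mainly in siEfp-treated HEC-1A cells. SNORA52 had a signal of 8.59 with siEfp and 7.40 with siControl in HEC-1A (+1.19), and of 7.67 with siEfp and 7.26 with siControl in Ishikawa (+0.42). SCARNA4 had a signal of 6.71 with siEfp and 5.59 with siControl in HEC-1A (+1.11), but of 5.71 with siEfp and 5.65 with siControl in Ishikawa (+0.07). These genes stood at positions 8 and 10 of all genes in HEC-1A. SNORA38B differed by +0.88 in HEC-1A and +0.25 in Ishikawa, and SCARNA7 by +0.63 in HEC-1A and +0.04 in Ishikawa. In Ishikawa the next H/ACA genes were SNORA70C, at 4.48 with siEfp and 3.70 with siControl (+0.78), and SNORA80E, at 7.03 with siEfp and 6.47 with siControl (+0.56), and they differed by -0.15 and +0.05 in HEC-1A.

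**Figure D1:**
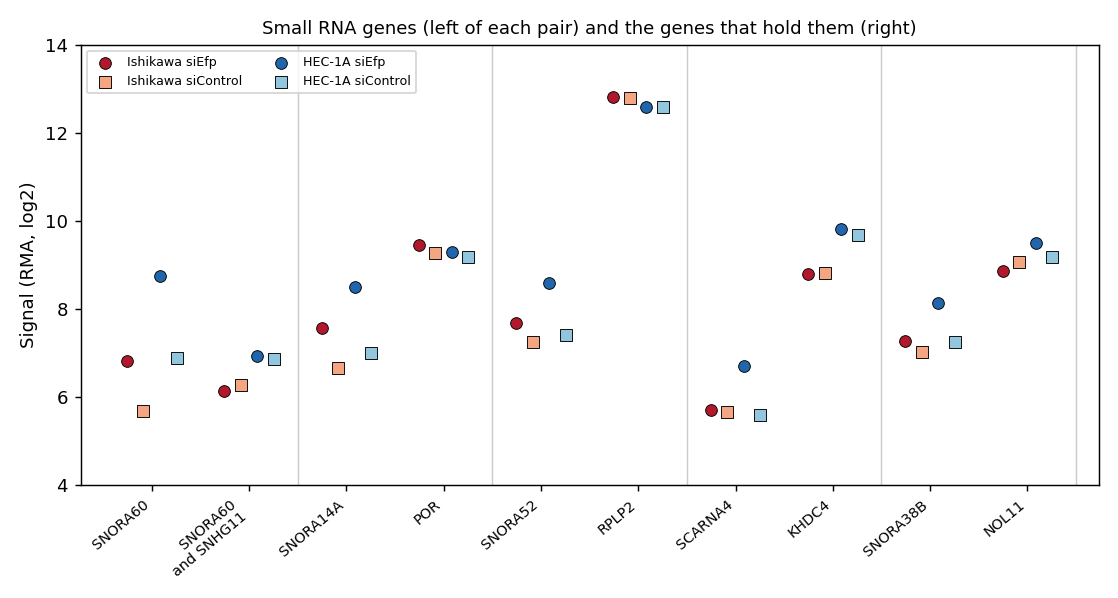
Signal on the log2 scale (y axis) of 5 small RNA genes and, to the right of each, of the gene that holds it or, for SNORA60, of the probe set paired with SNORA60 and SNHG11 (x axis), 1 point per array. SNORA60 and SNORA14A lay higher with siEfp (circles) than with siControl (squares) in both lines, while POR, RPLP2 and KHDC4 differed by at most 0.18 between siEfp and siControl.

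At a 2-fold difference, 1 of 192 small nucleolar RNA genes was higher in siEfp-treated Ishikawa cells (SNORA60), against 0.136% of all genes, and 4 of 192 were higher in siEfp-treated HEC-1A cells (SNORA60, SNORA14A, SNORA52 and SCARNA4), against 0.103% of all genes. None of the 192 was 2-fold lower in either line, where 0.804% of all genes were in Ishikawa and 0.271% in HEC-1A. At 1.5-fold, 4 were higher in Ishikawa and 8 in HEC-1A, against 1.49% and 1.34% of all genes. Only 1 was 1.5-fold lower in Ishikawa and 2 in HEC-1A, against 3.72% and 2.04% of all genes. SNORA60 and SNORA14A were the only 2 that were 1.5-fold higher in both lines, where 0.179% of all genes were, and none was 1.5-fold lower in both lines, where 0.961% of all genes were. C/D genes were absent from the 2-fold counts.

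The genes furthest down with siEfp in a line mostly differed little, or the other way, in the other line. SNORD15A, a C/D gene inside the ribosomal protein gene RPS3, had a signal of 6.12 with siEfp and 6.82 with siControl in Ishikawa (-0.70), but of 7.52 with siEfp and 7.24 with siControl in HEC-1A (+0.28). SNORD96B had a signal of 4.20 with siEfp and 4.94 with siControl in HEC-1A (-0.74), but of 4.20 with siEfp and 4.03 with siControl in Ishikawa (+0.16). SNORA62, which lies in the ribosomal protein gene RPSA, had a signal of 6.56 with siEfp and 7.20 with siControl in HEC-1A (-0.64), and differed by -0.03 in Ishikawa. The H/ACA gene SNORA7B was lower with siEfp on both sides, at 6.45 against 7.0 with siControl in Ishikawa (-0.55) and at 7.55 against 7.91 with siControl in HEC-1A (-0.36). SNORD77, a C/D gene of the noncoding host GAS5, likewise differed by -0.58 in Ishikawa and -0.35 in HEC-1A, at signals between 3.84 and 4.48.

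The lines are the only replication of the siRNA effect. In a limma fit over all 4 arrays with the line as a block, which leaves 1 residual degree of freedom and assumes the same effect in both lines, 0 of 192 small nucleolar RNA genes had an adjusted p under 0.05 (Benjamini-Hochberg over 18417 genes). Of all genes, 0.00543% were called higher and 0.157% lower with siEfp by the same rule. Without adjustment, 10 of the 192 were higher and 7 lower at a p under 0.05, where 955 and 1250 of all genes were. SNORA60 came closest, with an effect of +1.5 (SE 0.19) and a limma adjusted p of 0.0675, followed by SNORA14A with +1.21 (SE 0.17) and a limma adjusted p of 0.0736. Both were higher in 2 of 2 lines but missed the threshold.

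By class, the differences were small and the C/D genes leaned opposite ways in the lines. The median difference of the C/D genes was -0.07 in Ishikawa and +0.12 in HEC-1A, against 0.01 for all genes in each line. The medians of the H/ACA genes were -0.02 in Ishikawa and +0.05 in HEC-1A, and those of the SCARNA genes +0.05 and +0.17. The H/ACA genes thus exceeded the C/D genes by 0.04 in the median in Ishikawa and lay 0.08 below them in HEC-1A, well inside the quartile range of either class. Without SNORD113 to SNORD116 these gaps were 0.11 and -0.10, and without genes below the median signal 0.11 and -0.12. At the upper end the H/ACA genes reached +1.86 in HEC-1A while the highest C/D gene there was SNORD61 at +0.67, with signals of 4.69 with siEfp and 4.02 with siControl.

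**Figure D2:**
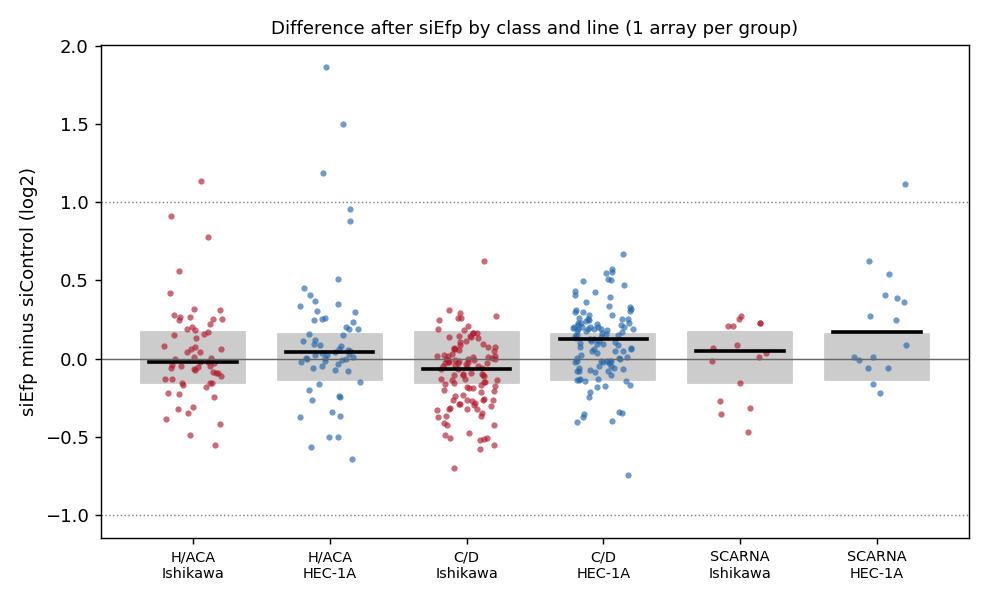
Difference siEfp minus siControl on the log2 scale (y axis) of each small nucleolar RNA gene by class and line (x axis), with the class median as a bar, the quartile range of all genes as a grey box and a 2-fold difference as dotted lines. The C/D median was -0.07 in Ishikawa and +0.12 in HEC-1A, and the points above the upper dotted line are H/ACA genes and SCARNA4.

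Taken gene by gene, 54 of 115 C/D genes were lower with siEfp in Ishikawa and higher with siEfp in HEC-1A, and 14 went the opposite way. Of all 18417 genes, 3842 were lower in Ishikawa and higher in HEC-1A, and 3863 went the opposite way. Outside the repeated imprinted families this applied to 35 of 69 C/D genes, whose medians were -0.13 in Ishikawa and +0.15 in HEC-1A. Among H/ACA genes it applied to 19 of 61, and 19 of 61 were higher in both lines, where 5735 of the 18417 genes were. Of the 192 members, 5 differed by at least 0.3 in opposite directions in the lines, against 1.56% of all genes. SNORD53 was the clearest example, at 6.11 with siEfp and 6.66 with siControl in Ishikawa (-0.55) and at 7.67 with siEfp and 7.11 with siControl in HEC-1A (+0.56). SNORD34 (-0.15 in Ishikawa and +0.51 in HEC-1A) and SNORD30 (-0.13 and +0.54) had the same signs. The difference between the lines was not tested, since there is 1 array per group.

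**Figure D3:**
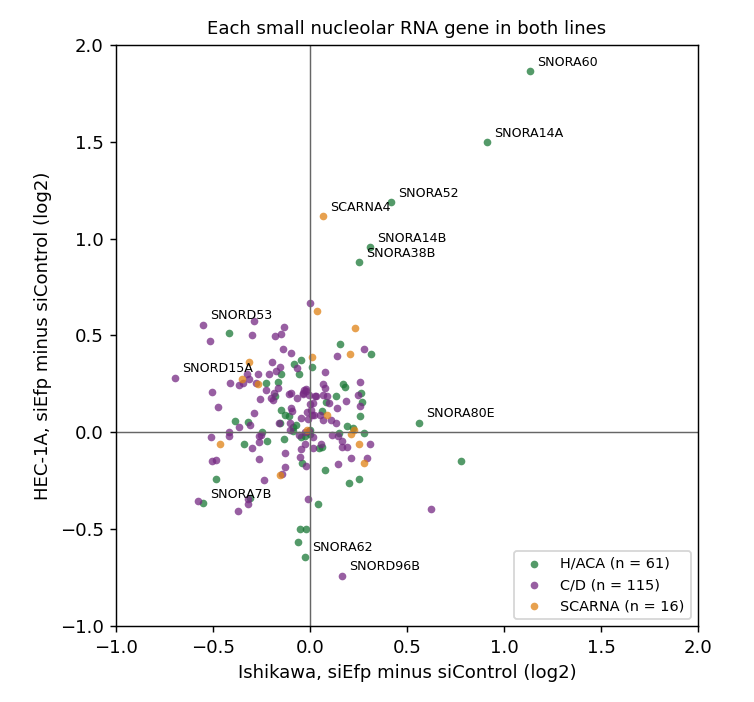
Difference siEfp minus siControl on the log2 scale in Ishikawa (x axis) and HEC-1A (y axis) for each of the 192 genes, coloured by class. SNORA60 and SNORA14A stand apart at the upper right, and 54 of 115 C/D genes lie in the upper left area, between the axes.

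Most members lie inside another gene, so their values were set beside those of the genes that hold them. Of the 192, 190 lie within the span of another gene in the RefSeq table, and 99 of them have a holding gene with a probe set of its own (77 such genes). The measured hosts of SNORA14A, SNORA52, SCARNA4 and SNORA38B differed by at most 0.32. POR, the reductase that passes electrons to cytochrome P450 enzymes and holds SNORA14A, differed by +0.18 in Ishikawa and +0.12 in HEC-1A. RPLP2, a protein of the ribosomal stalk whose gene holds SNORA52, differed by +0.04 and 0.00. KHDC4 holds both SCARNA4 and SNORA80E and differed by -0.01 in Ishikawa and +0.13 in HEC-1A, and NOL11, a factor of ribosomal RNA processing whose gene holds SNORA38B, by -0.21 and +0.32. SNHG11, the noncoding gene that holds SNORA60, has no probe set of its own. A probe set paired with both SNORA60 and SNHG11 had a signal of 6.14 with siEfp and 6.26 with siControl in Ishikawa, and of 6.93 with siEfp and 6.87 with siControl in HEC-1A, so it differed by -0.12 and +0.06.

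The hosts furthest from 0 with siEfp were set beside the RNAs inside them, whose differences were smaller in size or of the opposite sign. PHB2, which encodes prohibitin-2 of the inner mitochondrial membrane, had a signal of 10.05 with siEfp and 11.14 with siControl in Ishikawa (-1.09), and of 9.19 with siEfp and 10.67 with siControl in HEC-1A (-1.48), and it was the only host called by limma (lower, adjusted p = 0.0420). SCARNA12, which lies in it, differed by +0.25 and -0.06. KPNA4, an importin, differed by -0.74 in Ishikawa and -0.50 in HEC-1A, while SCARNA7 inside it differed by +0.04 and +0.63. TOMM20, a receptor for import into mitochondria, differed by -0.86 and -0.31, while SNORA14B within its span differed by +0.31 and +0.96. COBLL1 differed by +1.29 in Ishikawa and -0.05 in HEC-1A, while SNORA70F inside it differed by +0.16 and +0.45, at dim signals of 2.60 to 3.50. Over the 99 pairs, member and host had the same sign in 53 in Ishikawa and 52 in HEC-1A, with a correlation across pairs of -0.05 and 0.04. Members of the same host share its value, so the pairs are not independent.

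The start sites of the hosts are shown because many hosts are transcribed from promoters of the terminal oligopyrimidine type, in which a run of C and T at the first transcribed base links translation to growth signals. The lines below hold 10 bases before and 20 bases from the annotated start on, from RefSeq (GRCh38.p14), 5′ to 3′ on the transcribed strand, with the run in capitals where there is one.
SNHG11, chr20:38446644-38446673, + strand, host of SNORA60: gctctaggctgcagccgcgcccccagccgt
RPLP2, chr11:809957-809986, + strand, host of SNORA52: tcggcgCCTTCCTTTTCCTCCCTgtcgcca
KHDC4, chr1:155934394-155934423, - strand, host of SCARNA4 and SNORA80E: gagaggtggtagtcggatagttggcgggtg
RPS3, chr11:75399508-75399537, + strand, host of SNORD15A: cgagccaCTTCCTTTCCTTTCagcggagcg
A run was counted where at least 5 letters of C or T that begin with C start within 5 bases of the annotated start, on the transcribed strand only. RPLP2 and RPS3 have such runs of 17 and 14 bases, and SNHG11 and KHDC4 have none by this rule. Of 122 genes that hold a member, 100 are in the promoter table with 129 promoters, and 34.9% of these have a run, against 21.1% of all 35116 promoters. Among the 14 promoters of genes with a symbol that begins RPL or RPS the number was 11. Leaving out the repeated imprinted families, the 55 members held by a gene with such a run had a median with siEfp of -0.03 in Ishikawa and +0.11 in HEC-1A, and the 67 held by genes without it -0.04 and +0.05. A match is a description of these letters only.

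Many of these genes had lower signals in Ishikawa than in HEC-1A, whichever siRNA was used. Of the 192 small nucleolar RNA genes, 78 were lower and 11 higher in Ishikawa than in HEC-1A at a limma adjusted p under 0.05, where 18.3% of all genes were lower and 17.0% higher. That is 40.6% of the members lower and 5.73% higher. The median difference, Ishikawa minus HEC-1A, was -0.31 for the members and -0.01 for all genes. It was -0.43 for the H/ACA genes (29 of 61 lower, 4 higher), -0.20 for the C/D genes (43 of 115 lower, 6 higher) and -0.39 for the SCARNA genes (6 of 16 lower, 1 higher). Of the 69 C/D genes outside the repeated imprinted families 42 were lower and 2 higher, with a median of -0.57. Each line has 2 arrays that differ in siRNA, and line, culture and array handling cannot be told apart.

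**Figure D4:**
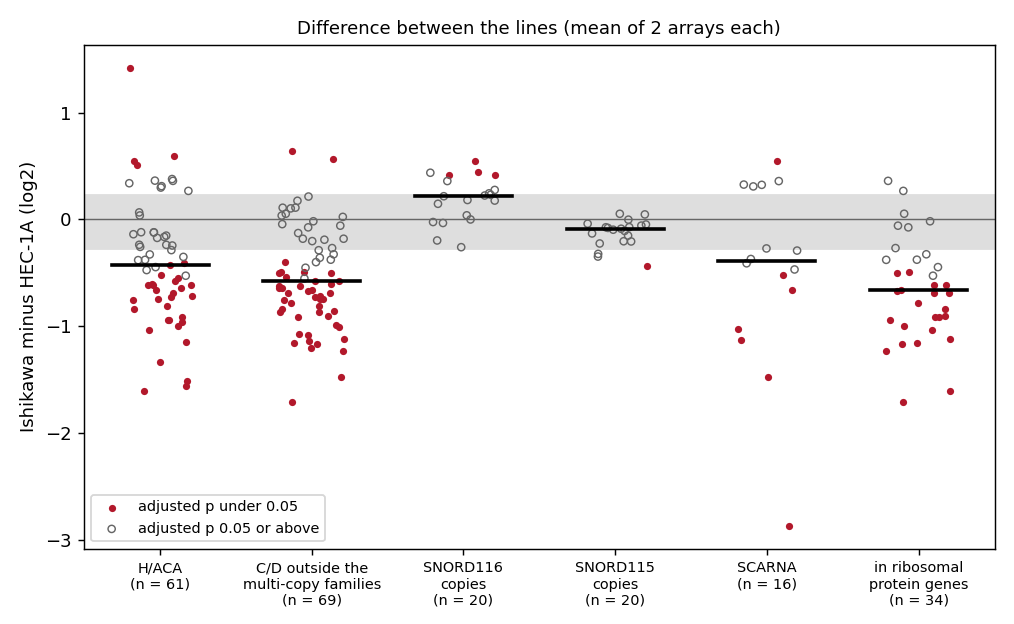
Difference Ishikawa minus HEC-1A on the log2 scale (y axis) of small nucleolar RNA genes by group (x axis), filled where the limma adjusted p was under 0.05, with the group median as a bar and the quartile range of all genes in grey. Members in ribosomal protein genes, counted with SNORA7B in the pseudogene RPL32P3, also appear under their class. The medians of the H/ACA genes (-0.43) and of the C/D genes outside the repeated families (-0.57) lie below the grey band, while that of the SNORD116 copies (+0.22) is inside it.

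SCARNA9L differed furthest between the lines. It had signals of 4.52 with siEfp and 4.43 with siControl in Ishikawa, against 7.39 with siEfp and 7.30 with siControl in HEC-1A, which is 7.31-fold lower in Ishikawa (-2.87, SE 0.12, limma adjusted p = 1.36e-05). Its 2 probe sets differed by -3.56 and -2.18, in the same direction. The gene lies within EIF1AX, a gene of an initiation factor of translation that was itself lower in Ishikawa by -0.90. SCARNA9, with the related sequence family name, was at 5.83 with siEfp and 6.10 with siControl in Ishikawa, against 7.11 with siEfp and 6.87 with siControl in HEC-1A (-1.02).

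Among the C/D genes SNORD4B was furthest apart, at 7.23 with siEfp and 7.42 with siControl in Ishikawa, against 9.14 with siEfp and 8.93 with siControl in HEC-1A (-1.71, limma adjusted p = 0.000221). It lies in RPL23A, which differed by -0.01 (limma adjusted p = 0.952), and the other 2 members in RPL23A, SNORD42A and SNORD4A, were lower in Ishikawa by -1.12 and -0.69. SNORA10, in the ribosomal protein gene RPS2, was at 8.09 with siEfp and 8.08 with siControl in Ishikawa, against 9.87 with siEfp and 9.53 with siControl in HEC-1A (-1.61), while RPS2 differed by +0.05. SNORA71A, in the noncoding host SNHG17, was at 9.15 with siEfp and 8.88 with siControl in Ishikawa, against 10.53 with both siRNAs in HEC-1A (-1.52), and here the host differed in the same direction, by -1.17. For each of these members, though not for RPL23A, both Ishikawa arrays lay below both HEC-1A arrays. That held for 110 of the 192 members and for 6003 of all 18417 genes.

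In the opposite direction, SNORA20 was furthest apart. It was at 7.57 with siEfp and 7.52 with siControl in Ishikawa, against 6.08 with siEfp and 6.16 with siControl in HEC-1A, which is 2.68-fold higher in Ishikawa (+1.42, SE 0.12, limma adjusted p = 0.000261). Its host TCP1, a subunit of the cytosolic chaperonin, differed by +0.36 (limma adjusted p = 0.0587). The other 10 members called higher in Ishikawa differed by +0.41 to +0.64, and they include SNORD56B (+0.64), SNORA70F (+0.60), SNORD94 (+0.57), SCARNA12 (+0.55) and 4 copies of SNORD116. Of these, SNORA70F was near the dim end, at 2.60 to 3.50 over the 4 arrays.

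By host, 34 members lie within ribosomal protein genes, counting SNORA7B in the pseudogene RPL32P3. Of these, 22 (SNORA7B among them) were lower in Ishikawa and 0 higher at a limma adjusted p under 0.05, with a median of -0.66. At an unadjusted p under 0.05 1 was higher and 26 lower, where 3793 and 4225 of all 18417 genes were. Of 28 members in GAS5, ZFAS1, EPB41L4A-AS1 or an SNHG gene other than SNHG14, 20 were lower and 1 higher, with a median of -0.68. Most of these members were bright, as 24 of the 34 and 22 of the 28 reached the median signal of all genes. Of all members that reached it, 55.6% were called lower in Ishikawa, and of all such genes 27.1%. Whether the kind of host matters beyond signal level was not tested. GAS5, a noncoding gene that accumulates in growth-arrested cells, holds 7 of the measured C/D genes, and 6 of these (SNORD44, SNORD74, SNORD75, SNORD78, SNORD79 and SNORD81) were lower in Ishikawa by -0.61 to -0.87. With siEfp the 7 GAS5 members had a median difference of -0.31 in Ishikawa, where none was higher, and of -0.02 in HEC-1A. Members and hosts had the same sign between the lines in 75 of 99 pairs, with a correlation across pairs of 0.45. The signed difference, Ishikawa minus HEC-1A, was higher for the member than for its host in only 22 pairs. In most pairs the member thus lay further towards lower in Ishikawa. The median was -0.47 for the members and -0.08 for their hosts. The promoter comparison used another set of members, without the repeated imprinted families. There the median was -0.50 for the 55 members whose host has the pyrimidine run and -0.50 for the 67 whose host has none.

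Other small noncoding RNA genes were set beside these. The 189 miRNA genes had a median difference of -0.01 between the lines, with 18 lower and 11 higher in Ishikawa, but only 14 of them reached the median signal. The 21 genes of spliceosomal, Y, vault and 7S RNAs had a median of -0.57, with 12 lower and 2 higher. Among the small nucleolar RNA genes that reached it, 50 of 90 were lower and 7 higher in Ishikawa (median -0.51), and among those below it 28 of 102 were lower and 4 higher (median -0.17). Of all 9209 genes that reached it, 2494 were lower and 1955 higher. The signal set against this median is the mean over all 4 arrays, so a gene can reach it through a single line. SNORA62 did so through HEC-1A and was called lower in Ishikawa, and SNORA20 through Ishikawa and was called higher there. How far these counts depend on that was not tested.

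Of the C/D genes linked to cutting of the ribosomal RNA precursor, SNORD13, SNORD14C and SNORD14E have a probe set of their own. All 3 were lower in Ishikawa, and none of these 3 differed with siEfp by more than 0.32. SNORD14E was at 6.57 with siEfp and 6.74 with siControl in Ishikawa, against 8.29 with siEfp and 7.97 with siControl in HEC-1A (-1.48, limma adjusted p = 0.000591). SNORD14C differed by -0.66 and SNORD13 by -0.40. SNORD14C and SNORD14E lie in the chaperone gene HSPA8 (-0.17), and SNORD13 lies in no other gene. The copies of SNORD3, which encode U3, the main RNA of this step, share their probe sets with each other and are not among the members. Their 5 probe sets hold identical values, at 6.84 with siEfp and 7.20 with siControl in Ishikawa (-0.37) and at 6.39 with siEfp and 7.01 with siControl in HEC-1A (-0.63), and the difference between the lines was +0.32, opposite to that of the 3 members. The 4 C/D genes of RPL13A that are linked to lipid-induced oxidative stress, SNORD32A, SNORD33, SNORD34 and SNORD35A, differed between the lines by -0.50, -0.06, -0.38 and -0.50, and SNORD32A and SNORD35A passed the test.

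The imprinted cluster on chromosome 15 held 40 of the C/D genes, most of them dim. SNORD115 and SNORD116 are families of near-identical copies expressed from the paternal chromosome, and loss of the SNORD116 region is linked to Prader-Willi syndrome. The 20 copies of SNORD115 had mean signals of 2.21 to 2.79, close to the lowest signals of the arrays, and 0 of 20 reached the median signal. The 20 copies of SNORD116 ranged from 2.55 to 11.31, with 7 that reached it. SNORD116-15 was at 11.58 with siEfp and 11.47 with siControl in Ishikawa, against 11.12 with siEfp and 11.05 with siControl in HEC-1A, and it was called higher in Ishikawa (+0.44, limma adjusted p = 0.0297) together with SNORD116-24, SNORD116-20 and SNORD116-1. Their siRNA differences were at most 0.26 in size in either line. The 6 copies of SNORD113 and SNORD114 from the cluster on chromosome 14 had mean signals of 2.58 to 3.17.

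**Figure D5:**
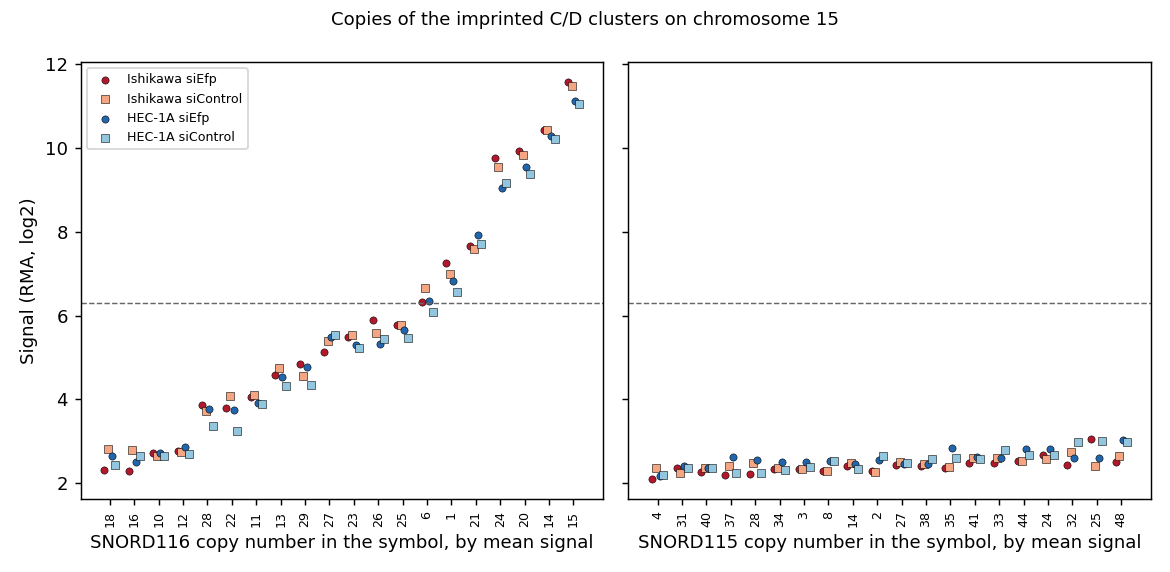
Signal on the log2 scale (y axis) of each SNORD116 copy (left) and SNORD115 copy (right), ordered by mean signal (x axis), 1 point per array, with the median of all genes as a dashed line. All SNORD115 copies stay between 2 and 3.1 on every array, while the SNORD116 copies span 2.55 to 11.31 in the mean.

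The small Cajal body RNA genes included 1 that overlaps a miRNA hairpin, which does not lie wholly within its span. The sequences of the mature forms are shown because they are the only part of a member that the reference tables give. Both mature forms of miR-6516 lie wholly within SCARNA16 in RefSeq (GRCh38.p14), with the seed, bases 2 to 8, in capitals.
hsa-miR-6516-5p, chr17:77089428-77089449, + strand: uUUGCAGUaacaggugugagca
hsa-miR-6516-3p, chr17:77089469-77089490, + strand: aUCAUGUAugauacugcaaaca
The 2 seeds differ. SCARNA16 was at 8.24 with siEfp and 8.71 with siControl in Ishikawa (-0.47) and at 8.12 with siEfp and 8.18 with siControl in HEC-1A (-0.06), the furthest down of the SCARNA genes in Ishikawa. The probe set does not separate the miRNA from the longer RNA.

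The proteins that bind and assemble these RNAs were measured by 21 genes. None of the 21 was called with siEfp by limma at an adjusted p under 0.05, and at an unadjusted p under 0.05 there was 1 higher and 1 lower. Of the core proteins, FBL differed with siEfp by +0.01 in Ishikawa and +0.10 in HEC-1A, NOP58 by -0.04 and +0.03, and DKC1 by -0.40 and +0.26. The other H/ACA core genes differed in the same order by -0.16 and +0.12 (NHP2), +0.22 and +0.14 (NOP10) and -0.04 and -0.31 (GAR1). Between the lines 7 of 21 (33.3%) were lower in Ishikawa and 0 higher by limma at an adjusted p under 0.05. At an unadjusted p under 0.05 these counts were 12 and 0, where 3027 and 2356 of the 9209 genes that reached the median signal were. All 21 reached the median signal, and of the 9209 genes that did, 27.1% were called lower and 21.2% higher. The 7 all belong to the 13 genes of assembly and end processing. They are the ATPase RUVBL1 (-0.85), the cap methylase TGS1 (-0.76), the assembly factors ZNHIT3 (-0.65), ZNHIT6 (-0.51), NUFIP1 (-0.47) and RPAP3 (-0.45), and the nucleolar chaperone NOLC1 (-0.52). The H/ACA core gene DKC1 differed by -0.50 (limma adjusted p = 0.0727) and the C/D core gene FBL by +0.11. The other core genes differed by -0.34 (NOP10), -0.04 (NHP2), +0.16 (GAR1) and -0.22 (NOP58). Of the listed host genes that are noncoding, 4 had a probe set of their own, and of these SNHG17 (-1.17) and ZFAS1 (-0.81) were lower in Ishikawa, while EPB41L4A-AS1 (-0.27) and SNHG29 (+0.31) did not pass the test. RPL32P3, a pseudogene outside that list that holds SNORA7B, was also lower (-0.76).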

How the data were processed

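The values deposited by the authors are log2 signals of each probe set, and the submitters' processing notes name Affymetrix Expression Console and RMA without versions. RMA brings all arrays to the same distribution and compresses differences of dim probe sets. The array is the Human Exon 1.0 ST in the paper and the Human Gene 1.0 ST by its probe set numbers. No source used here gives a genome build. Arrays carry no read depth, and their number limits the precision.

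Probe sets with exactly 1 gene symbol (19460 of 33297) were averaged per gene to 18417 genes. All 192 members matched the RefSeq table for GRCh38.p14 by gene ID. A host is the shortest gene whose span holds the member, and for host values the shortest with its own probe set. Strand was not used, as the table has none, so some hosts may run antisense. Within a line, siControl was subtracted from siEfp, with no test. limma 3.58.1 in R 4.3.3 fitted line and siRNA over 4 arrays with Benjamini-Hochberg adjustment, and was tested on simulated data. Other steps used Python 3.11.15, pandas 2.3.3, numpy 2.4.6 and matplotlib 3.10.9. p-values measure only the spread between these arrays, and for each gene limma took that spread mostly from all genes pooled. The fit has 1 residual degree of freedom per gene and 5.54 prior degrees of freedom from the pool.

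Members and lists were chosen with earlier results of these data known. The named genes are members past 2-fold in a line or 1.5-fold in both, the 5 furthest each way by class and line at or above the median signal, the 5 brightest by class, the 5 furthest between lines, members of sublists and their hosts. SNORA14B, SNORA70C, SNORA13, SNORD61, SNORD96B, SNORD102, SCARNA8, SCARNA9 and the GAS5, RPL23A and SNORD116 members were singled out after their values were seen. A planned search for the C box was not run, as no sequence of a C/D gene itself was used here.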

Additional observations from a re-analysis of the deposited data

Results flagged for a closer look

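There were 5 small nucleolar RNA genes that differed by at least 0.3 on the log2 scale in opposite directions in the 2 lines, of 192, against 288 of all 18417 genes. The difference between the lines was not tested, as each group is 1 array. With siEfp minus siControl, SNORD53 differed by -0.55 in Ishikawa and +0.56 in HEC-1A, SNORD102 by -0.52 and +0.47, SNORA13 by -0.42 and +0.51, and SCARNA8 by -0.31 and +0.36. SNORD115-25 went the other way, with +0.62 in Ishikawa and -0.39 in HEC-1A, at signals of 2.42 to 3.04 that are near the lowest of the arrays.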

How the results depend on the processing

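Of 109 alternatives of the 21 main results, 11 moved a count by over 1.5 times or a median by over 0.1, and no median of at least 0.1 in size changed sign. Medians nearer 0 did without genes below the median signal, where in Ishikawa the H/ACA median was +0.04 in place of -0.02 and the SCARNA median -0.01 in place of +0.05. At 1.5-fold in place of 2-fold, the counts became 1 lower and 4 higher in Ishikawa and 2 lower and 8 higher in HEC-1A. At 2-fold in place of 1.5-fold, 1 member was higher in both lines. Without SNORD113 to SNORD116 the median C/D signal was 6.87. Members called higher with siEfp by limma numbered 4, with 1 lower, without genes below the median signal. This leaves 90 members and 9209 genes, of which 158 genes were called higher and 457 lower. That filter uses all 4 arrays, and SNORA60 passed it only through the siEfp arrays, as its siControl arrays averaged 6.28 against a limit of 6.31. There were 2 with an intensity trend (SNORA60 and SNORA14A, limma adjusted p = 0.0189 and 0.0272), where 30 of all 18417 genes were called higher and 152 lower. At an adjusted p under 0.1 there were 2 as well, where 9 of all genes were higher and 76 lower. Without the block, or quantile normalized again, no gene at all was called. Over the alternatives the limma adjusted p of SNORA60 ranged from 0.000276 without dim genes to 1 without the block. Between the lines at an adjusted p under 0.1, 17 of 192 members were higher and 88 lower in Ishikawa, where 3671 and 4072 of all 18417 genes were. Without genes below the median signal, 11 of 90 members were higher and 58 lower, where 2321 and 2996 of 9209 genes were. As that filter uses all 4 arrays, a gene can pass it through the line where it is high. In the other alternatives 67 to 82 of 192 members were lower, where 2597 to 3565 of all genes were.

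Of 206 siRNA differences of 103 named members, 3 moved by over 0.1, all with the probe set of highest mean signal (SCARNA9L to -0.26 in Ishikawa and +0.29 in HEC-1A, SCARNA17 to -0.31 in Ishikawa). No replicate could be left out, as each group is 1 array. The arrays are paired by line in the limma fit, and the labels give no replicate numbers for any other pairing. Signals near 2 to 3 limit what the arrays can show for SNORD115 and the chromosome 14 copies.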
